A study of Homo sapiens with 12 samples.

Results

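Gene expression of BEAS-2B cells given both TGF-β1 and dexamethasone was compared with that of untreated control cells, in 3 libraries of each, 6 of the 12 in the series. BEAS-2B is a bronchial epithelial cell line from a human donor, immortalised with viral genes. All cells were first kept for 24 h in medium free of serum and steroid. The combined group received TGF-β1 at 40 pM for 24 h and then dexamethasone at 30 nM for 4 h more, and the control group received neither agent. No source used here names the vehicle. The other 6 libraries, 3 with TGF-β1 alone and 3 with dexamethasone alone, served to sort the genes. The 3 libraries of a group are described as biological triplicates, of 1 cell line, and carry replicate numbers 1 to 3. The growth text of the labels names A549 cells, a lung adenocarcinoma line, while the source, cell type and treatment labels name BEAS-2B.

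TGF-β1 is a secreted growth factor whose receptors phosphorylate SMAD proteins, which enter the nucleus and drive genes of the extracellular matrix, of cell movement and of their own feedback. Dexamethasone is a synthetic glucocorticoid. It binds the glucocorticoid receptor, which then occupies response elements near genes such as FKBP5 and PER1 and lowers many inflammatory genes. In airway epithelium the first is known for wound repair and fibrosis, and the second is the class of drug inhaled for asthma.

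Levels are given as CPM, read counts divided by the scaled size of their library and brought to 1 common total. Differences are log2 fold changes, each followed by its standard error (SE) where one is given. A gene was called where edgeR's quasi-likelihood test, with the replicate number as a block, gave a Benjamini-Hochberg adjusted p under 0.05 over the 13469 genes tested. It was shifted where it was called and differed at least 2-fold. Total counts ran from 5861591 to 7008203 in replicates 1 and 2 and from 17968961 to 19727235 in replicate 3 of the 4 groups. Markers of bronchial epithelium had reads for 10 of 10 genes in each group, with a summed level of 2535 to 3389 CPM in control and 4732 to 7694 CPM with both agents. KRT7 and KRT17 made up most of the rise in the sum, while by gene 5 of the 10 were higher and 4 lower (median log2 fold change 0.12, and -0.14 with library-size scaling). The 6 A549 markers summed to 24.1 to 26.9 CPM and 17.3 to 23.2 CPM, 5 leukocyte markers to 18.2 to 21.1 CPM and 14.3 to 19.7 CPM, 5 endothelial markers to 3.53 to 5.28 CPM and 2.61 to 3.40 CPM, and 5 fibroblast markers to 0.758 to 1.40 CPM and 1.04 to 1.46 CPM. The 6 airway secretory and ciliated markers summed to 2.56 to 14.9 CPM in control and 2.07 to 2.59 CPM with both, and the haemoglobin genes had no reads in either. The part of these marker levels in the results was not tested. In such bulk samples fewer cells of a type and less RNA per cell cannot be told apart.

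With both agents 3567 genes were higher and 3590 lower than in control, 53.1% of those tested. The shift of at least 2-fold held for 888 higher genes (6.59% of those tested) and 829 lower genes (6.15%), 12.7% in all. Of these 1717 genes, 1703 moved the same way in replicate numbers 1, 2 and 3, and in 1636 no control library overlapped a library with both; over all genes tested the libraries did not overlap for 47.1%. Just inside the 2-fold line lay TMED3 (log2 fold change 1.0014) and just outside it NEK11 (0.9999). Without the replicate block 2491 genes were higher and 2434 lower. Scaling by library size alone moved the median of all genes from -0.0129 to -0.272 and gave 1834 higher and 7035 lower genes, which lowers the share of higher genes among the calls from 49.8% to 20.7%. Directions below are therefore relative to the median gene.

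Most of what the combination shifted was also shifted the same way by a single agent. Of the 1717 genes, 979 (57%) shared their shift with TGF-β1 alone, 254 (14.8%) with dexamethasone alone and 142 (8.27%) with each of them, which makes 1375 that stayed shifted. The other 342 were not shifted the same way by either agent alone. The comparisons of single agents and of the combination share the same control libraries, so these counts describe the sorting and are not separate evidence. TGF-β1 alone shifted 1530 genes (11.4% of those tested), 729 higher (5.41%) and 801 lower (5.95%). Dexamethasone alone shifted 690 (5.12%), 401 higher (2.98%) and 289 lower (2.15%). At any size 50% of genes were called with TGF-β1 alone and 22.2% with dexamethasone alone.

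**Figure D1:**
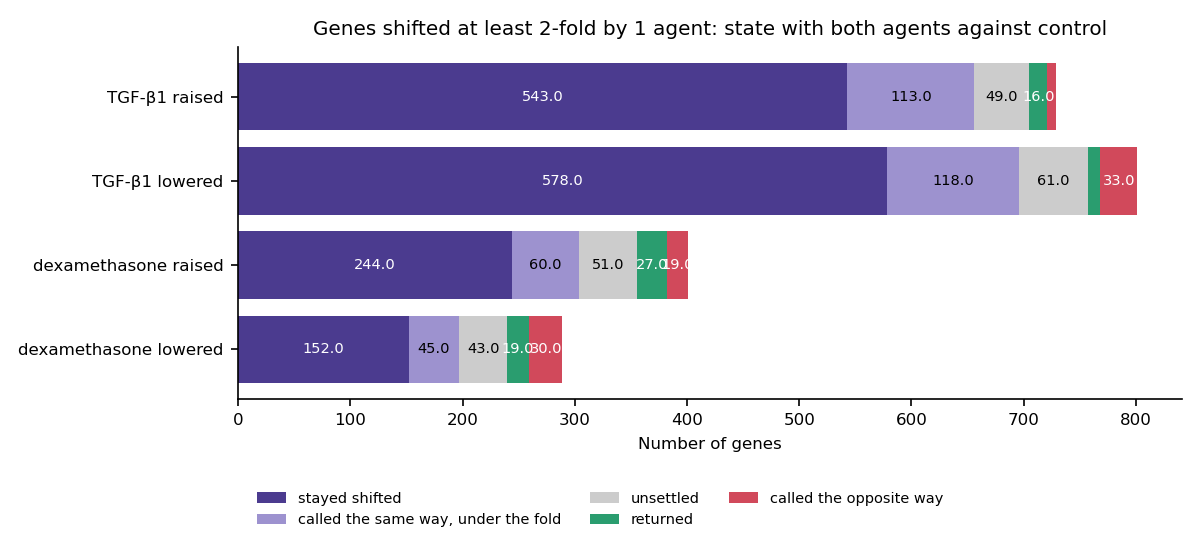
Number of genes (horizontal axis) that 1 agent alone raised or lowered at least 2-fold, split by their state with both agents against control. The longest segments are genes that stayed shifted, 543 of 729 raised and 578 of 801 lowered by TGF-β1, and 244 of 401 raised and 152 of 289 lowered by dexamethasone; the segments without a number are 8, at the end of the first bar, and 11 returned genes in the second.

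TGFBI, a matrix protein named for its induction by TGF-β, read 267, 253 and 190.3 CPM in the 3 control libraries and 11492, 9214 and 8945 CPM with both. The groups were far apart (5.39 on the log2 scale, SE 0.06, adjusted p = 5.07e-21), and both agents together did not differ by the test from TGF-β1 alone (-0.15, adjusted p = 0.11). COL1A1, which encodes a chain of type I collagen, differed from control by 4.05 (SE 0.16) with both against 4.22 with TGF-β1 alone. The receptor co-chaperone FKBP5 read 158, 145 and 179.6 CPM in control and 1326, 1721 and 1371 CPM with both. All 3 libraries with both lay above control, by 3.18 (SE 0.09, adjusted p = 2.45e-10), and below dexamethasone alone (log2 fold change -0.71, adjusted p = 5.09e-05). PER1, a clock gene and direct receptor target, differed from control by 2.88 (SE 0.08) with both and by 2.82 with dexamethasone alone. NR3C1, the glucocorticoid receptor gene itself, fell from 275, 348 and 293 CPM to 118, 149.7 and 133 CPM (-1.19, SE 0.05); it was shifted by dexamethasone alone (-1.31) and lower without a shift under TGF-β1 alone (-0.46).

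Some genes were raised further by the second agent. SLCO2A1, a prostaglandin transporter, read 0.606, 0.776 and 0.531 CPM in control and 49.7, 33.2 and 45.2 CPM with both. Its 3 libraries with both lay above every library of the other groups, and its log2 fold change was 3.98 with TGF-β1, 1.20 with dexamethasone and 6.19 (SE 0.34) with both. ITGA5, the integrin chain of the fibronectin receptor, was higher by 2.15, 1.94 and 3.76 in the same order. DUSP1, a phosphatase of MAP kinases, rose from 30.2, 25.8 and 22.5 CPM to 388, 396 and 258 CPM (3.70, SE 0.09), against 3.31 with dexamethasone alone. Among genes shifted by TGF-β1 that stayed shifted, dexamethasone moved 163 further the same way and 107 back toward control by the test of both against TGF-β1, which called 17.5% of all genes. Among those shifted by dexamethasone, TGF-β1 moved 148 further and 91 back, where both against dexamethasone was called for 49.9% of all genes.

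The largest rises by the naming rule began with R3HDML, which had 0 reads in the 3 control libraries and 376 with both, at least 149-fold higher when control is set to 3 counts in all. KDR, a receptor for vascular endothelial growth factor, read 0, 0.621 and 0.193 CPM in control and 85.6, 136 and 87.3 CPM with both (8.60, SE 0.53), a level below that with dexamethasone alone in every replicate number. ELN, the elastin gene, rose from 0.91, 0.776 and 0.966 CPM to 147, 41.4 and 125 CPM (6.93, SE 1.38). ALOX5AP, which feeds arachidonic acid to 5-lipoxygenase, had 3 reads in control and 328 with both, a ratio of 130 (exact counting interval 44.1 to 634). Such intervals and floors cover counting error only. COMP, a cartilage matrix protein (6.82, SE 0.56), ITGA11, a collagen-binding integrin chain (6.58, SE 0.48), STAC2 (6.51, SE 0.49) and COL6A3, a type VI collagen chain (6.38, SE 0.42), followed.

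The deepest falls were in ADGRF1, an adhesion receptor, from 8.95, 23 and 9.85 CPM to 0, 0.174 and 0 CPM (-8.03, SE 1.64), and in SDS, serine dehydratase (-5.08, SE 0.36). With both agents ADGRF1 had almost no reads, so the size of its fall is uncertain. OAS1, an antiviral sensor that interferon induces, fell from 28.8, 25.9 and 28.6 CPM to 1.13, 0.87 and 1.09 CPM (-4.72, SE 0.24). Its libraries with both lay below those of TGF-β1 alone (1.40 to 1.86 CPM) and of dexamethasone alone (7.14 to 8.62 CPM), though the difference from TGF-β1 alone was not called (-0.57, adjusted p = 0.26). MLXIPL, a glucose-responsive transcription factor (-4.61, SE 0.35), AQP5, a water channel of airway glands (-4.56, SE 0.44), and IFIT2, an interferon-induced antiviral gene (-4.35, SE 0.34), also fell. MLXIPL was lower with TGF-β1 alone (-5.16) and not with dexamethasone alone (-0.03), whereas AQP5 and IFIT2 were shifted by each agent.

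**Figure D2:**
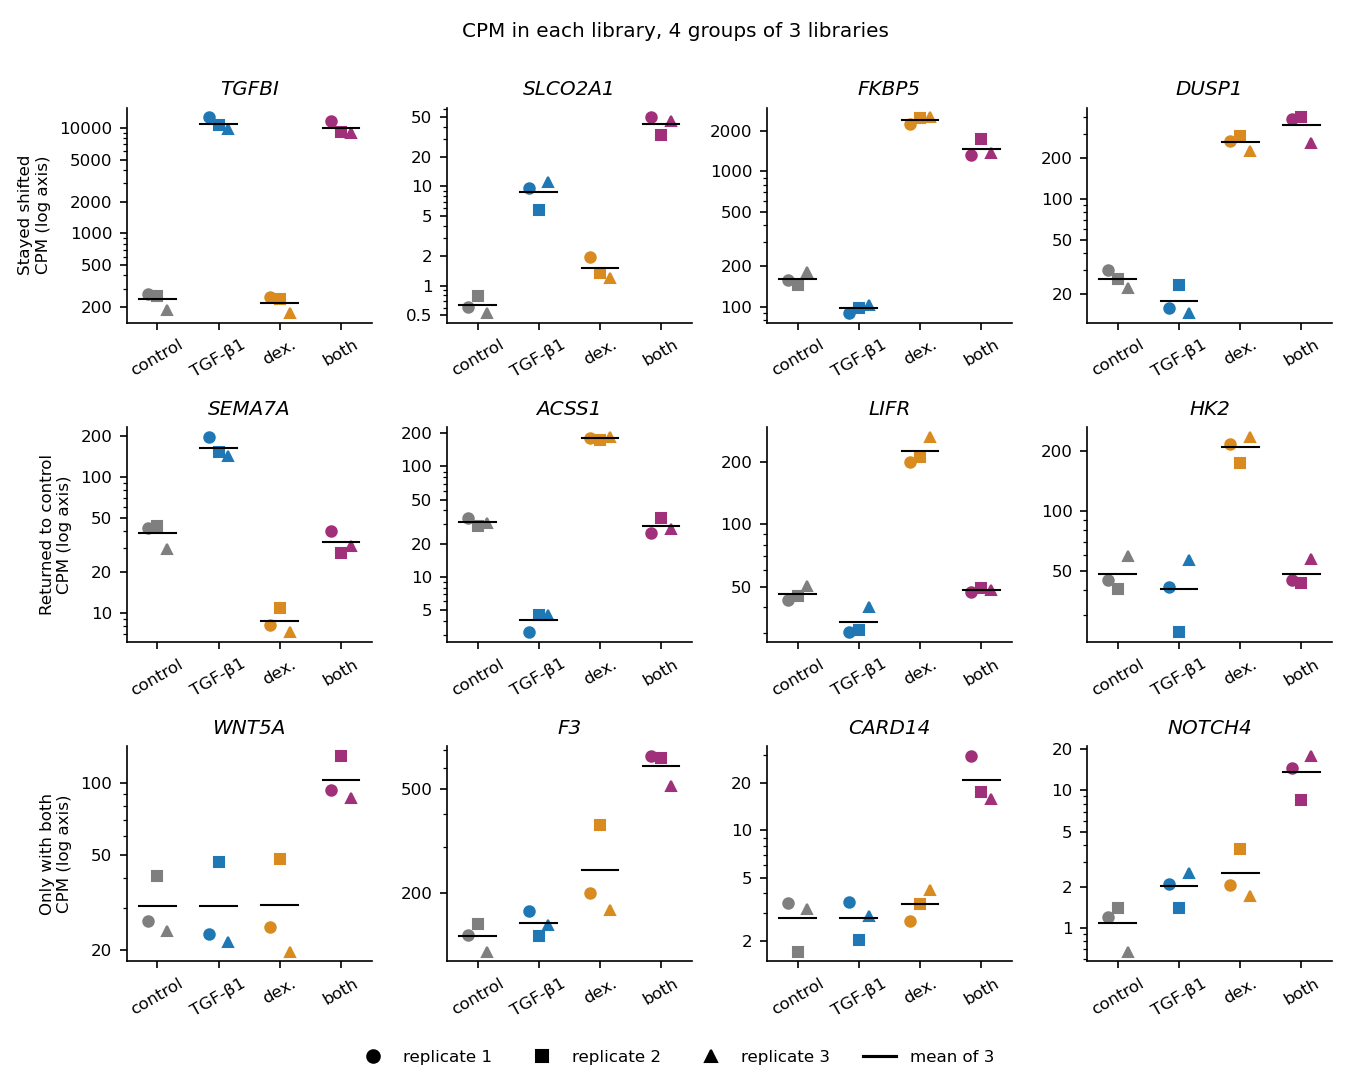
CPM of 12 genes on log axes, 1 point per library and a line at the mean of 3, for control, TGF-β1, dexamethasone (dex.) and both. The libraries with both stand apart from control in the top row, overlap it in the middle row (SEMA7A, ACSS1, LIFR, HK2) and stand above the other 3 groups in the bottom row.

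Genes were counted as returned to control level under 4 conditions. An agent alone shifted the gene, the combination was called different from that agent in the opposite direction, it was not called different from control, and the 95% interval of its difference from control lay within 1.5-fold either way. From the TGF-β1 shift 27 of 1530 genes (1.76%) returned, 16 raised and 11 lowered. From the dexamethasone shift 46 of 690 (6.67%) returned, 27 raised and 19 lowered. Together these are 60 genes, 13 of which returned from a shift by each agent, and in those 13 the agents alone moved the gene in opposite directions. In 58 of the 60 the control libraries and those with both overlapped, and their log2 fold changes with both ran from -0.28 to 0.30. Over all genes tested the libraries did not overlap for 47.1%. The classes were defined on these same differences, so their values are a description with no test.

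SEMA7A, a membrane-anchored semaphorin, read 42.3, 43.8 and 29.5 CPM in control and 40.2, 27.3 and 31.3 CPM with both. The 2 groups overlapped, while TGF-β1 alone gave 196, 153 and 141 CPM and dexamethasone alone 8.13, 10.9 and 7.23 CPM. ACSS1, a mitochondrial acetyl-CoA synthetase, was the reverse, with 3.15, 4.48 and 4.54 CPM under TGF-β1 and 182, 173 and 186 CPM under dexamethasone. With both it read 24.8, 33.9 and 27.1 CPM against 34.1, 28.7 and 30.9 CPM in control, a log2 fold change of -0.14 with a 95% interval of -0.36 to 0.07. Other genes of this kind were VEGFC, a lymphatic growth factor (1.30 with TGF-β1, -0.93 with dexamethasone, -0.20 with both), IL6R, the interleukin-6 receptor (-1.13, 1.39 and 0.04), and KCNIP3, a potassium channel partner (-1.95, 1.16 and -0.01). In STC1, stanniocalcin (1.52, -2.07 and 0.30), the interval ran from 0.0349 to 0.5731, above 0 throughout though the difference was not called. Its upper bound lay just within the margin of 0.585, and PLAUR (0.6266) lay just outside.

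Of the 27 genes that returned from the TGF-β1 shift, dexamethasone alone was called in the opposite direction for 25 and not called for 2. Of the 46 that returned from the dexamethasone shift, TGF-β1 alone was called opposite for 35, the same way for 1 and not at all for 10. Over all genes tested, 22.2% were called with dexamethasone alone and 50% with TGF-β1 alone, in either direction. The interaction, which is how far the dexamethasone effect differed between cells with and without TGF-β1, was called for 5 of the 27 and 26 of the 46. It was called for 4.78% of all genes tested. The return rule, the single-agent calls and the interaction are built from the same differences. The counts in this paragraph therefore describe the class and do not test it.

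LIFR, the receptor for leukemia inhibitory factor, read 42.9, 44.9 and 50.5 CPM in control and 47.2, 49.3 and 48.4 CPM with both, while its mean with dexamethasone alone was 226 CPM (SD 34.9, n = 3). With TGF-β1 alone it read 30.1, 30.8 and 39.9 CPM. HK2, the hexokinase that commits glucose to glycolysis, read 217, 174 and 235 CPM with dexamethasone, and 44.7, 40.4 and 59.2 CPM in control overlapped 45, 43.2 and 56.9 CPM with both. TGF-β1 alone did not call HK2 (-0.23). SPRY2, a feedback inhibitor of receptor tyrosine kinase signalling (2.02 with dexamethasone, 0.20 with both), and FZD4, a Wnt receptor (1.59 and 0.15), followed the same course. ZSWIM4 (-2.23 with dexamethasone, 0.99 with TGF-β1, -0.06 with both) and SMOX, spermine oxidase (-1.57, 0.34 and -0.28), returned from below. Chosen after their values were seen, CFLAR, an inhibitor of caspase-8, was shifted by 1.38 with dexamethasone and stood at 0.01 with both, and SOCS3, a feedback inhibitor of cytokine signalling, was lower with each agent alone (-0.39 with TGF-β1, -1.03 with dexamethasone) and at -0.23 with both.

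**Figure D3:**
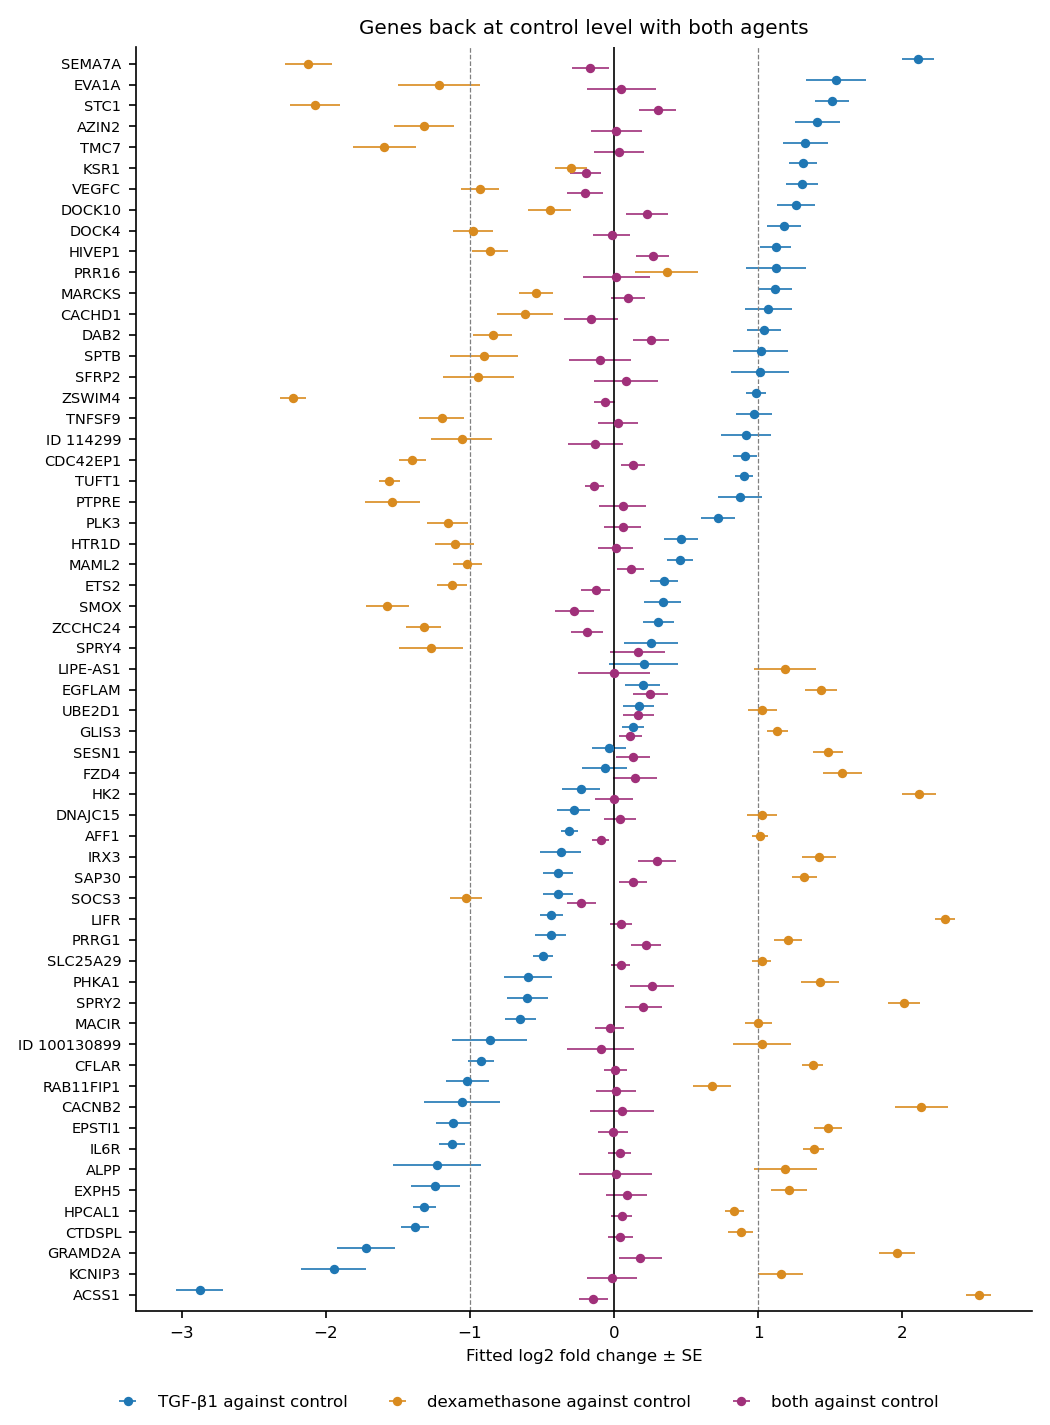
Fitted log2 fold change ± SE against control of the 60 returned genes with TGF-β1, dexamethasone and both; dashed lines mark 2-fold. Points for both lie between -0.28 and 0.30, while TGF-β1 and dexamethasone lie on opposite sides of 0 for most genes.

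Which genes count as returned rests on the scaling and the libraries. With library-size scaling 30 and 49 genes met the rule, of which 4 and 20 were among the 27 and 46. Under that scaling SEMA7A, ACSS1, VEGFC, IL6R, LIFR, ZSWIM4 and SMOX were called below control with both, by less than 1.5-fold each, while STC1, KCNIP3, HK2, SPRY2, FZD4 and EVA1A were not called. Without replicate 1 the TGF-β1 count was 14, with 10 of the 27 among them, and without replicate 3 the counts were 16 and 30, with 11 of the 27 and 24 of the 46. A further 110 genes shifted by TGF-β1 and 94 shifted by dexamethasone were unsettled, neither called against control with both nor shown to lie within the margin. A margin of 2-fold instead of 1.5-fold gave 63 and 91 returned genes.

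In 41 genes shifted by TGF-β1 the combination was called on the other side of control, 33 of them lowered by TGF-β1, and 19 were shifted there at least 2-fold. ZBTB16, a zinc finger repressor, read 3.03, 1.09 and 4.01 CPM in control, 0.876, 0.464 and 1.74 CPM with TGF-β1, and 77.3, 81.6 and 85.1 CPM with both. PDK4, a kinase that restrains pyruvate oxidation (-2.50 with TGF-β1, 4.91 with dexamethasone, 2.91 with both), CDKN1C, the cell cycle inhibitor p57 (-1.57, 4.24 and 2.89), and SGPP2, a sphingosine 1-phosphate phosphatase (-2.96, 3.18 and 1.88), showed the same order. In each of these 3 the level with both was called below that with dexamethasone alone. IER3, an early response gene, was the one gene that TGF-β1 raised and that was shifted below control with both, from 76.3, 68.8 and 46.5 CPM to 33.2, 23 and 24.2 CPM (-1.18, SE 0.10). Of the genes shifted by dexamethasone, 49 were called on the other side of control, 23 of them shifted. SCNN1A, a sodium channel subunit of epithelia, was among the 49: it rose by 1.28 with dexamethasone, fell by 3.49 with TGF-β1, and stood at -0.52 with both (SE 0.08, adjusted p = 7.67e-06), though its control and combined libraries overlapped.

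The 342 genes above were shifted with both and not shifted the same way by either agent alone. A few, such as CRACDL (-1.38 with TGF-β1, 1.21 with both), were shifted the opposite way by an agent alone. Of the 342 genes, 106 were called the same way by each agent under 2-fold, 122 by TGF-β1, 25 by dexamethasone and 89 by neither. KRT7, a simple epithelial keratin, was of the first kind, with log2 fold changes of 0.77, 0.85 and 1.69 (SE 0.05) for TGF-β1, dexamethasone and both.

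Genes were counted as moving only with both where the combination was shifted, neither agent alone was called, and the combination was called against each agent alone in the same direction. There were 30, which is 1.75% of the 1717, with 27 higher and 3 lower. Their median log2 fold change was 1.37 with both, 0.17 with TGF-β1 and 0.26 with dexamethasone. Control and combined libraries did not overlap in 27 of 30, beside 1636 of all 1717 shifted genes and 47.1% of all genes tested. For 13 the 95% intervals of both single agents lay inside 2-fold, and for 17 an interval reached 2-fold. In 4 genes, NOTCH4 among them, a single agent stood at 2-fold or more without being called. The interaction was called for 8 and not for 22, so that for the 22 a response to both beyond the sum of the single responses was not shown. The class and the interaction are built from the same differences, so these counts and the values below describe the class and do not test it.

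WNT5A, a Wnt ligand of the non-canonical branch, read 26.4, 40.7 and 24 CPM in control, 23.3, 46.4 and 21.5 CPM with TGF-β1, 24.8, 47.9 and 19.6 CPM with dexamethasone, and 93.5, 129 and 86.3 CPM with both. The 3 libraries with both lay above the other libraries, and replicate 2 was the highest of each group. Its log2 fold change was 1.78 (SE 0.11, adjusted p = 2.86e-09), against -0.04 and -0.06 for the single agents. CARD14, a scaffold protein that activates NF-κB in skin, read 3.49, 1.71 and 3.19 CPM in control and 29.5, 17.4 and 15.9 CPM with both (2.75, SE 0.24), against -0.06 and 0.32. The transcription factor FOXP4 rose from 60, 52.8 and 56.8 CPM to 211, 129 and 127 CPM (1.41, SE 0.15), with 0.17 and -0.39 for the single agents.

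F3, tissue factor, which starts coagulation, read 138, 153 and 119.8 CPM in control and 666, 653 and 514 CPM with both (2.16, SE 0.23, adjusted p = 0.000293). With dexamethasone alone it read 199.9, 365 and 173 CPM, above control in each replicate number but not called (0.80). NOTCH4, a Notch receptor, rose from 1.21, 1.4 and 0.676 CPM to 14.6, 8.53 and 17.6 CPM (3.92, SE 0.45), with 1.20 and 1.27 for the single agents, neither called. PTX3, a soluble pattern recognition protein (1.84, SE 0.38), NHLH2, a helix-loop-helix factor (1.75, SE 0.31), and SH3RF2 (1.51, SE 0.25) were also higher. PTX3 read 1.97, 2.64 and 0.531 CPM in control and 3.73, 4.70 and 5.17 CPM with both, with by far the largest gap in replicate 3. Of the 3 lower genes the rule named SERTAD4-AS1 (-1.33, SE 0.27), an antisense RNA whose reads cannot be told apart from its partner's without strand. Chosen after their values were seen, HAS2, a hyaluronan synthase, was higher by 1.03 with both against -0.86 with dexamethasone, and IRAK1, a kinase of interleukin-1 receptor signalling, by 1.02.

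**Figure D4:**
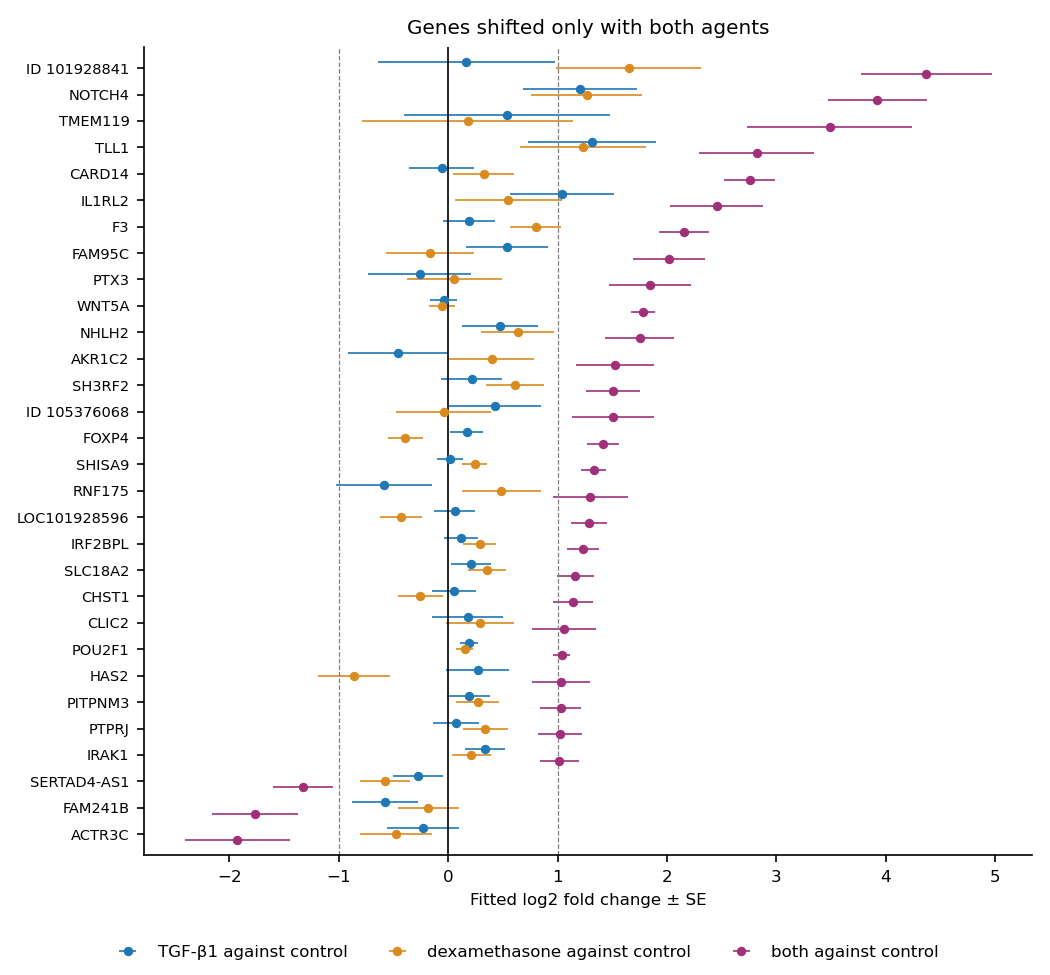
Fitted log2 fold change ± SE against control of the 30 genes that moved only with both agents; dashed lines mark 2-fold, and labels starting with ID are identifiers with no symbol. WNT5A, POU2F1 and SHISA9 have narrow error bars near 0 for each single agent, whereas NOTCH4 and TLL1 have single-agent points beyond 2-fold.

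Without control replicate 3 the only-with-both count was 48 in place of 30. Without the replicate block it was 26, of which 19 were the same genes, and DESeq2 gave 23, with 19 shared. Fewer of the 30 genes were kept when a whole replicate number was left out, 13 of 28 without replicate 1, 17 of 42 without replicate 2 and 12 of 29 without replicate 3. With 1 library left out, from 15 of the 30 (without combined replicate 3) to 26 (without control replicate 2) were kept. Membership of the class thus rests on the libraries used more than the counts show. By RefSeq on GRCh38.p14, WNT5A (Entrez gene 7474) lies on chromosome 3 from 55465715 to 55505263, CARD14 (79092) on chromosome 17 from 80170030 to 80209331, F3 (2152) on chromosome 1 from 94529173 to 94541759, SEMA7A (8482) on chromosome 15 from 74409289 to 74433958 and LIFR (3977) on chromosome 5 from 38474668 to 38608403. All 5 are protein-coding in that annotation, and the deposited counts cover whole genes.

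The 250 bases before the gene start were searched, in RefSeq promoter sequences, for letters that AP-1, SMAD proteins and the glucocorticoid receptor are known to bind. The AP-1 letters TGANTCA stood in 5 of the 21 only-with-both genes with a sequence (F3, NHLH2, NOTCH4, CLIC2 and SERTAD4-AS1), in 3.85% of 10659 tested genes and in 6.6% of all 27305 windows. They also stood in 1 of 50 returned genes. Where genes shared their shift with dexamethasone alone, they stood in 12 of 141 higher and 5 of 50 lower genes. For TGF-β1 alone these were 20 of 348 and 14 of 361, and for a shift shared with each agent 1 of 43 and 3 of 55. The core of the glucocorticoid response element (GNACA, any 3 bases, TGTNC) stood in 0 of the 21 and in 1 of 50 returned genes, EVA1A. It stood in 0.159% of the tested genes and in 0.33% of all windows. The SMAD palindrome GTCTAGAC stood in 0 of the 21, in 0 of the 50 returned genes and in 0.141% of the tested genes. It stood in 1 of 348 higher genes that shared their shift with TGF-β1 alone. Each motif reads the same on either strand and was searched on both. Sequences matched 21 of 30 and 10659 of 13469 genes, too few for a comparison of shares, and a match is not a bound site. The sequences of 4 genes, chosen after their values were seen as those where such letters meet a gene described here, are printed 5′ to 3′ in the direction of the gene, with the matched letters in capitals. All 4 lie on the minus strand, F3 at chr1:94541760-94542009, NHLH2 at chr1:115841127-115841376, EVA1A at chr2:75569720-75569969 and CMKLR2 at chr2:206213372-206213621 (GRCh38.p14).
F3: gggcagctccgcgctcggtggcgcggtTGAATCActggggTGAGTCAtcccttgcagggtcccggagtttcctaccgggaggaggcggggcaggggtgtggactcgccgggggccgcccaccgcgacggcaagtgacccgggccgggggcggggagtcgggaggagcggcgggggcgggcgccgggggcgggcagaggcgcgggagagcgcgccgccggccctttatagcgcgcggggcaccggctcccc
NHLH2: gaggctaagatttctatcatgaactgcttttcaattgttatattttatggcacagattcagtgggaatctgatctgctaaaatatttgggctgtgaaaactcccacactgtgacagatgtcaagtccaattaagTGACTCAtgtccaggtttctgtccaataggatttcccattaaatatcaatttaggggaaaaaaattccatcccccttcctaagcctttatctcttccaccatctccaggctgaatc
EVA1A: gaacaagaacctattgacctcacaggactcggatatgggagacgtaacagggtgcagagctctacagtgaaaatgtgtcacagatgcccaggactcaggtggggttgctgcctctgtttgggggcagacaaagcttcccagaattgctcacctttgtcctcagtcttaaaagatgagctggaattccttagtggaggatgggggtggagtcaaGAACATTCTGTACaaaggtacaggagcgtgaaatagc
CMKLR2: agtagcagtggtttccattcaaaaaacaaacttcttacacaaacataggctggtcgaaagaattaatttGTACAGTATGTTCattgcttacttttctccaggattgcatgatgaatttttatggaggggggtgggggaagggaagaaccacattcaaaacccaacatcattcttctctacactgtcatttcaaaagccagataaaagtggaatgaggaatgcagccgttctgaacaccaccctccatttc
In F3 the pair of AP-1 matches begins 223 and 210 bases before the start, and in NHLH2 the match begins 116 bases before it. EVA1A, a lysosomal and endoplasmic reticulum membrane protein, returned from each shift (1.54 with TGF-β1, -1.21 with dexamethasone, 0.05 with both), and its match begins 37 bases before the start. CMKLR2, a chemerin receptor, stayed shifted, at 0.155 CPM in control, 1.08 CPM with dexamethasone and 5.62 CPM with both (log2 fold change 5.62, SE 0.94). It was the 1 match to the glucocorticoid core among 141 higher genes that shared their shift with dexamethasone alone. Among genes that shared their shift with TGF-β1 alone the core stood in 2 of 348 higher and 3 of 361 lower genes.

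Gene lists gave the wider picture; they were drawn up with earlier results of these data known. Counts stand beside the background of 26.5% of all genes higher and 26.7% lower with both, with a median log2 fold change of -0.01 over all genes. Counts with library-size scaling stand beside 1834 higher and 7035 lower of all 13469 genes. Of 34 glucocorticoid-induced genes 30 were higher and 3 lower, with a median of 1.99. Of the 31 that dexamethasone alone shifted, 24 stayed shifted, 4 stayed higher under 2-fold, 2 were called below control, 1 was unsettled and 0 returned. Of all 690 genes that dexamethasone shifted, 57.4% stayed shifted, 15.2% were called the same way under 2-fold, 7.1% the opposite way and 6.67% returned. ANGPTL4, a lipase inhibitor, was at 3.96, TSC22D3, the protein GILZ, at 2.86 (SE 0.23) and SGK1, a kinase acting on ion channels, at 2.59 (SE 0.20). KLF9, a Krüppel-like factor, was at 0.92 (SE 0.11) with both against 1.28 with dexamethasone. The members below control were SCNN1A, CEBPD (-0.65), a C/EBP factor, and TMT1A (-1.41). All 6 metallothionein genes tested were higher (5 with library-size scaling), MT1M by 5.14 from 3 reads in control to 101, a ratio of 40.1 (counting interval 13.3 to 198). Metallothionein genes are near-identical, so reads may be split between them.

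Of 48 extracellular matrix genes 40 were higher and 4 lower (median 1.69). Of the 33 that TGF-β1 alone shifted 30 stayed shifted, 3 were called the same way under 2-fold and 0 returned. Of all 1530 genes that TGF-β1 shifted, 73.3% stayed shifted, 15.1% were called the same way under 2-fold and 1.76% returned. FN1, fibronectin, was at 4.24 (SE 0.18) with both and 3.87 with TGF-β1 alone. Of 28 SMAD feedback genes and targets 23 were higher and 3 lower (median 1.09). SMAD7, the inhibitory SMAD, rose from 16.1, 14.3 and 10.5 CPM to 73.9, 56.4 and 65.8 CPM (2.35, SE 0.16), below its rise with TGF-β1 alone (3.10). SMAD3, a signal transducer of the pathway, fell from 205, 167 and 205 CPM to 39.4, 34.3 and 30.6 CPM, and its log2 fold change of -2.50 (SE 0.17) compared with -1.07 for TGF-β1 and -1.46 for dexamethasone. Of 23 mesenchymal genes 18 were higher and 2 lower. SNAI1, a repressor of epithelial genes, read 4.09, 2.33 and 3.43 CPM in control, 109, 85.5 and 101 CPM with TGF-β1 and 47.8, 35.2 and 48.9 CPM with both. It thus stayed shifted (3.76, SE 0.14) below the level of TGF-β1 alone (-1.16, adjusted p = 9.38e-11). Of 16 integrin genes 10 were higher and 5 lower; ITGB8, which activates latent TGF-β, fell (-2.15, SE 0.10).

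Of 39 genes of epithelial junctions and keratins 8 were higher and 21 lower (median -0.42). KRT15 (-3.05, SE 0.25) and the tight junction genes TJP3 (-2.82) and OCLN (-2.13) fell, while KRT14 (2.36), KRT17 (1.93) and PKP1 (1.87) rose. KRT14 and KRT17 are close relatives of each other, so reads may be split between them, and both belong to the bronchial markers above. CDH1, E-cadherin, was at -0.35 (SE 0.09, adjusted p = 0.00293) with both against -0.66 with TGF-β1 alone, and its libraries overlapped with control. Of 45 actin and contractile genes 30 were higher and 9 lower (median 0.43), among them TAGLN (3.47), CNN1 (3.27) and TPM1 (2.63), which bind actin filaments; with library-size scaling 25 were higher and 15 lower. CFL1, the non-muscle cofilin, was higher by 0.60.

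Of 15 inflammatory mediators 4 were higher and 10 lower (median -0.76). IL6 fell from 6.22, 3.88 and 3.04 CPM to 0.486, 0.696 and 0.304 CPM (-3.17, SE 0.47), near the -3.55 of dexamethasone alone. CXCL8, the neutrophil chemokine, fell from 3.34, 4.81 and 1.93 CPM to 0, 0.174 and 0 CPM, and IL1B was lower by a log2 fold change of -3.23 (SE 0.57). The 4 higher members were the metalloproteases MMP3 (3.97) and MMP9 (3.21), the growth factor CSF3 (2.26) and the cytokine IL11. IL11 read 4.85, 6.83 and 4.15 CPM in control, 142, 117 and 97.2 CPM with TGF-β1, 1.18, 1.49 and 1.44 CPM with dexamethasone and 23.7, 16.5 and 14.9 CPM with both. It stayed shifted (1.81, SE 0.15), between the levels of TGF-β1 and control. Of 33 interferon-stimulated genes 24 were lower and 2 higher (median -0.83), and of 34 cell cycle genes 28 were lower and 2 higher (median -0.28), with CDK1 at -0.83 and RRM2 at -0.76. With library-size scaling 29 and 32 members of these 2 lists were called lower. That scaling called 7035 of all 13469 genes lower, with a median of -0.272 over all genes. It lowers gene lists in general, so these 2 counts are not a separate check of the direction.

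**Figure D5:**
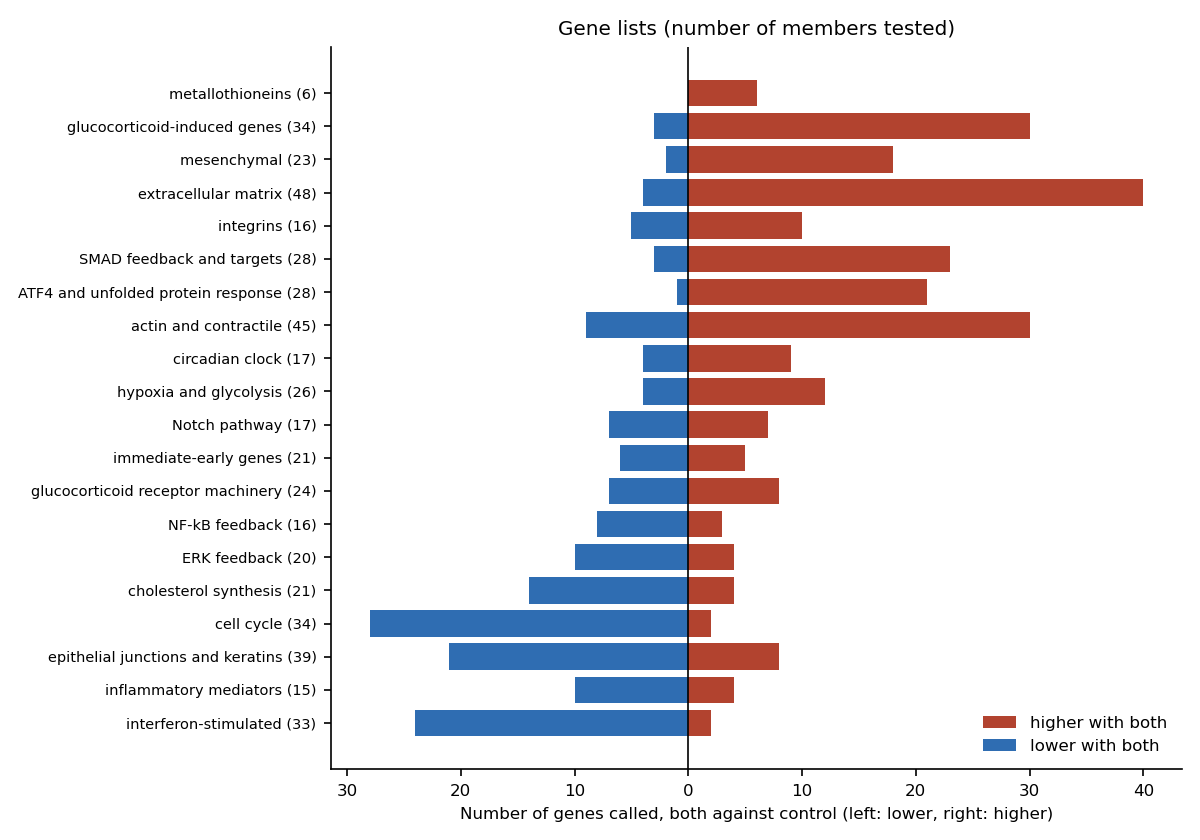
Number of genes called higher (right) and lower (left) with both agents against control in 20 gene lists, with the number of members tested in parentheses. Lists are ordered by their median log2 fold change, from metallothioneins at the top to interferon-stimulated genes at the bottom.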

How the data were processed

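RNA was sequenced in 12 libraries, 4 groups of 3. Per the labels' protocols, poly(A) RNA from total RNA with an integrity number above 8 went into a library kit that does not mark strand. The authors deposited raw read counts per gene made with featureCounts on hg38, per the submitters' processing notes; no source used here gives its version, strand setting, aligner or annotation release. The table held 18 count columns, of which 12 matched the labels and 6 have no label and were not used. Of 28395 Entrez identifiers 27745 matched the RefSeq table of GRCh38.p14 (99.943% of counts).

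Genes were kept by filterByExpr (minimum count 10), which left 13469. All 12 libraries were fitted with edgeR 4.0.16 (limma 3.58.1, R 4.3.3): TMM scaling, robust dispersion, a mean per group and the replicate number as block. SE are from the fitted model and intervals are 95%. The numbers pair the libraries: after removal of group means, residuals of all 18 same-number pairs correlated across genes at 0.25 to 0.541. The common coefficient of variation was 0.0577 with the block and 0.122 without. P-values measure the spread between these libraries. Tables and figures used Python 3.11.15, pandas 2.3.3 and matplotlib 3.10.9.

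Classes, members and gene lists were chosen with earlier results of these data known. Named genes were a set fixed by name, the 10 largest rises and falls among called genes without overlap and with a mean log2 CPM from 1 up, up to 8 per class and direction, and up to 3 per list and direction. Alternatives were no block, library-size scaling, DESeq2 1.42.0, no filter, only control and both libraries, other folds and margins, and each library or replicate number left out. The fit and the class rules were tested on simulated counts with known answers. There the classes missed many genes changed by the threshold fold or less and found most of those changed more. The class counts are therefore not totals of such genes. Simulated returned genes were changed with TGF-β1 alone and had no dexamethasone effect, unlike most genes that returned from the TGF-β1 shift. The simulation also left out the spread per gene of the quasi-likelihood fit. Recovery in the real data was thus not measured.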

Additional observations from a re-analysis of the deposited data

Results flagged for a closer look

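In CARD14, WNT5A and FOXP4, named as moving only with both agents, the effect of dexamethasone differed between cells with and without TGF-β1. The interaction in the edgeR fit was 2.49 on the log2 scale for CARD14 (SE 0.37), 1.88 for WNT5A (SE 0.16) and 1.64 for FOXP4 (SE 0.22). It was called in these and in 5 more of the 30 genes of that class, HAS2 (1.62), LOC101928596 (1.65), CHST1 (1.34), SHISA9 (1.07) and POU2F1 (0.70). The class was chosen on differences from which the interaction is built, so these values are a description and no p is given. In CARD14 dexamethasone added 0.32 without TGF-β1 and 2.81 with it, in WNT5A -0.06 and 1.82, and in FOXP4 -0.39 and 1.25. In each of CARD14, WNT5A and FOXP4 the 3 libraries with both lay above all other libraries. The cause was not tested.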

How the results depend on the processing

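Of 183 named genes 144 kept their direction and side of the threshold under the alternatives run, 22 lost their call in at least 1 of them and 8 changed sign with a call in either setting. Those 8 did so under library-size scaling: CTDSPL -0.21, HPCAL1 -0.20, IL6R -0.22, LIFR -0.21, CDC20 -0.0573, IRF9 -0.0074, SQLE -0.0338 and EBP -0.0686. That scaling also gave 1834 higher, 7035 lower and 1256 lower genes at least 2-fold. A shift of 1.5-fold instead of 2-fold gave 1587 higher and 1633 lower shifted genes, 88 and 125 returned from the TGF-β1 and dexamethasone shifts, 2611 that stayed shifted and 62 only with both. A return margin of 2-fold gave 63 and 91 returned genes. Leaving out a library or a replicate number gave 14 to 28 and 30 to 48 returned genes, 1240 to 1567 that stayed shifted, 22 to 48 only with both, 2799 to 3719 higher and 2652 to 3664 lower genes, and 840 to 1054 and 802 to 953 at least 2-fold. Without the replicate block, which pairs libraries of the same number, 1274 stayed shifted, 18 and 31 returned and 26 moved only with both. The lower depth of replicates 1 and 2 limits genes with few reads.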

Other observations

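Counts for other gene groups stand beside the background of 26.5% higher and 26.7% lower. Those with library-size scaling stand beside 1834 higher and 7035 lower of all 13469 genes, with a median of -0.272. A larger number of lower genes under that scaling is therefore not particular to a group. Among 28 ATF4 targets and unfolded protein response genes 21 were higher and 1 lower (median 0.74, and 0.48 with library-size scaling). CHAC1, which degrades glutathione, was higher by 2.44, XBP1, a transcription factor of the response, by 1.47 and the chaperone gene HSPA5 by 1.33. Of 17 clock genes 9 were higher and 4 lower, with the repressor gene BHLHE40 at 1.67, NPAS2 at 1.30, and the PAR bZIP genes DBP (-1.41) and HLF (-3.80) lower, but 5 and 5 with library-size scaling. Of 21 cholesterol synthesis genes 14 were lower and 4 higher, with HMGCS1 at -0.83, and 18 and 0 with library-size scaling. Of 26 genes of hypoxia and glycolysis 12 were higher and 4 lower, but 7 and 8 with library-size scaling, where the median turned from 0.21 to -0.05. Of 24 genes of the glucocorticoid receptor and its cofactors 8 were higher and 7 lower, but 5 and 15 with library-size scaling, where the median turned from 0.02 to -0.24. Of 16 genes of NF-κB feedback 3 were higher and 8 lower, and 1 and 10 with library-size scaling. Of 21 immediate-early genes 5 were higher and 6 lower, with a median of 0.07 that was -0.19 with library-size scaling.

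Of 17 Notch pathway genes 7 were higher and 7 lower, with a median of 0.10 that turned to -0.16 with library-size scaling. Beside NOTCH4, the Notch target gene HEYL was higher by 4.18 (SE 0.21), against 3.15 with TGF-β1 and -0.56 with dexamethasone, and the targets HES4 (-1.51) and HES1 (-0.60) were lower. Of 20 genes of feedback on ERK signalling 4 were higher and 10 lower. SPRY1, a Sprouty inhibitor, fell by 3.12, while its relative SPRY2 returned to control level. Of the 13 mitochondrial protein-coding transcripts 0 were called by edgeR with both, 0 by DESeq2 and 9 were called lower with library-size scaling. They took 1.85% to 2.40% of counts in control and 1.74% to 1.79% with both.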
